A study of Bubalus bubalis with 6 samples.

Results

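The 2564 probes described here had a ratio of immunoprecipitated over input DNA below the middle of the array in the sperm of all 6 buffalo bulls. They were chosen by their measured values and are 2.31% of the 110916 autosomal probes whose input DNA was detected (well above background) on each of the 6 arrays, called the measured probes below, and 1.45% of all 177440 non-control probes. The value of a probe was its deposited log2 ratio of immunoprecipitated over input DNA, with the median of each array's column subtracted, and a probe was kept if this value was -0.5 or less in every bull. A value of 0 is therefore the middle of an array, not an absence of methylation, and the values that chose the probes are given as a description, with no test. The share of 2.31% is fixed by the rule and nothing is read from it.

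The animals were 3 high-fertile water buffalo bulls (HF2, HF3 and HF5) and 3 subfertile bulls (SF1, SF4 and SF5). Frozen semen was the source of all DNA, and the labels give no age, breed, genotype beyond the fertility class, or measure of fertility. Sonicated fragments of 300 to 1000 bp were enriched by an antibody that binds 5-methylcytosine (methylated DNA immunoprecipitation, meDIP), labelled with Cy5 and hybridised against the same bull's Cy3-labelled input to an array of CpG islands and promoters with probes of 60 bases. The dyes were not swapped in any bull, so a dye effect and the pulldown cannot be told apart. HF2, HF3 and SF4 were scanned on the first date, and HF5, SF1 and SF5 on later dates, with SF1 under another scanner protocol than the other 5. HF5 and SF5 shared a slide, and HF2, HF3, SF1 and SF4 shared another, so the later dates span both slides.

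In mammalian DNA most methylation lies on the cytosine of CpG dinucleotides, and CpG-rich promoters of widely used and developmental genes are usually kept free of it, in sperm as in other cells. Sperm also carries germline imprints, which leave some control regions methylated and others unmethylated for the next generation. In meDIP a fragment is recovered according to the methylated cytosines along its whole length, so a probe reports on its surroundings as well as on its own bases.

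Of the 10 depleted probes with 8 CpGs, the highest number in the set, the 4 non-overlapping ones with the lowest means are shown first, because they hold the most CpGs that the antibody could have bound. CpGs are in capitals here and in all sequences below. Positions are those in the probe names. No source used here states their genome build, and the bases are printed as the array files give them, with strand unstated. The series' design text names Bos taurus as the organism and a buffalo array, while the samples are labelled Bubalus bubalis, and chromosomes in the probe names are numbered to 29 as in cattle. Whether the bases and CpG counts are those of cattle or buffalo DNA was thus not settled.
chr20:11004435-11004494: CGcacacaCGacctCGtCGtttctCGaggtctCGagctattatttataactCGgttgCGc
chr21:13293396-13293455: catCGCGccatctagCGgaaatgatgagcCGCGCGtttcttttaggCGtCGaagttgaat
chr16:48293437-48293496: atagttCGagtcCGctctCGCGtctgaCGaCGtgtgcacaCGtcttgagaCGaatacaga
chr21:28215905-28215964: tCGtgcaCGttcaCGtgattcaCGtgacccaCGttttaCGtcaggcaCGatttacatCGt

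None of these 4 has a named probe within 2000 bp. Of the other 6, a probe of ZDHHC20, a palmitoyltransferase, at chr12:35865755-35865814 carried a name and gave -1.08, -1.19 and -1.33 in HF2, HF3 and HF5 and -0.72, -1.38 and -1.31 in SF1, SF4 and SF5, with overlapping groups. The probe at chr21:13293396 gave -1.42, -1.94 and -1.38 in HF2, HF3 and HF5 and -1.06, -0.86 and -1.19 in SF1, SF4 and SF5, and belonged to a run of 7 depleted probes. Its high-fertile values all lay below its subfertile ones, although the gap between HF5 and SF5 was small. At the 4 probes shown, in the order printed, the immunoprecipitated signal was well above background on 2, 4, 2 and 2 of the 6 arrays.

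The depleted probes held 3.44 CpGs on average, against 2.81 in the 108352 other measured probes, at the same median GC content of 51.7%. Of the depleted probes, 597 (23.3%) had 5 or more CpGs, with a 95% Wilson interval of 21.7% to 24.96%, against 11.6% (11.4% to 11.8%) of the others. Only 48 (1.87%) had none, against 4.26% of the others. The share of measured probes that were depleted in all bulls rose from 1.03% (48 of 4667) without a CpG to 2.21% (663 of 30032) with 3, 5.33% (159 of 2983) with 6. It was 5.08% (30 of 590) with 7, 12.99% (10 of 77) with 8 and 0 of 3 with 9. Overlapping probes share bases, so these intervals cover counting error only and are too narrow.

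**Figure D1:**
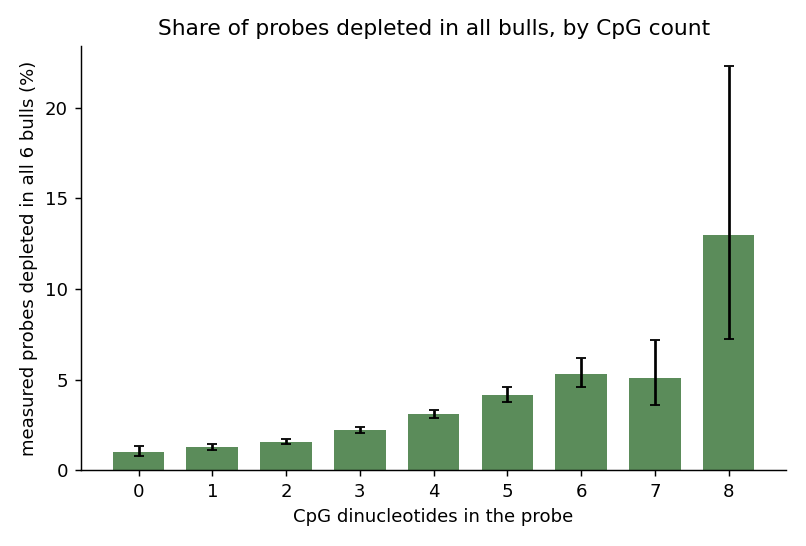
Share of the measured probes that were depleted in all 6 bulls (vertical axis, percent) by the number of CpGs in the 60-base probe (horizontal axis). Bars are shares and whiskers are 95% Wilson intervals for counting error. The share is 1.03% at 0 CpGs, 5.33% at 6, 5.08% at 7 and 12.99% at 8, where only 77 probes were measured.

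The gradient was also present at a given GC content. Among probes with a GC content of 50% or more, 1.32% of those with 0 or 1 CpG, 2.19% of those with 2 to 4 and 4.51% of those with 5 or more were depleted in all bulls. Among probes with a GC content of 45% to 50%, the shares were 1.01%, 2.35% and 4.58%. The observed over expected CpG ratio was 0.93 in the depleted probes and 0.78 in the others, and TpG plus CpA, the products left when methylated CpG mutates, numbered 7.57 and 7.93 per probe.

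Each bull alone showed the same order. In HF2, HF3 and SF4, the arrays of the first scan date, 46.4%, 46.0% and 40.6% of the measured probes with 5 or more CpGs were at -0.5 or below, against 29.0%, 24.6% and 22.2% of those with 0 or 1. In HF5, SF1 and SF5 the shares were 25.3%, 17.03% and 31.8% with 5 or more CpGs and 21.8%, 14.3% and 24.8% with 0 or 1. The difference had the same direction in 6 of 6 bulls and was smaller on the arrays of the later dates. Counted once per run of overlapping probes, 19.2% of 1412 depleted runs averaged 5 or more CpGs, against 7.16% of 24692 runs of other measured probes. These shares depend on how many probes a run averages, which was more in the other runs, so they are not like for like. The mean per run was 3.38 CpGs in depleted runs and 2.71 in the others.

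Short motifs known as binding sites in promoters were searched on both strands of the probes, and none of these motifs contains another. The cAMP response element TGACGTCA lay in 18 depleted probes (0.70%), from 8 separate runs, and in 0.20% of all measured probes. Measured probes weighted to the CpG counts of the depleted ones held it in 0.27%. The NRF1 core GCGCATGC lay in 8 depleted probes (0.31%) from 6 runs, against 0.11% of measured probes and 0.13% at matched CpG count. The E2F-like letters TTTCGCGC lay in 9 (0.35%), from only 3 runs, against 0.088% and 0.12%. The E-box with a central CpG, CACGTG, lay in 62 (2.42%) against 1.67% and 1.87%, and the CCAAT box, which needs no CpG, lay in 243 (9.48%) against 8.40% and 8.20%.

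The other searches gave shares near or below those of the measured probes. The ETS letters CCGGAAG lay in 28 depleted probes (1.09%) against 0.94%, and 1.07% at matched CpG count. The TATA letters TATAAA lay in 58 (2.26%) against 1.97% and 2.27%. The Sp1 box GGGCGG lay in 44 (1.72%), below the 2.81% of measured probes and the 3.04% at matched CpG count. These are counts of letters in 60 bases and were not tested.

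In the 6 bulls the depleted probes had median values of -1.09 in HF2, -1.10 in HF3, -0.97 in HF5, -0.77 in SF1, -0.97 in SF4 and -1.08 in SF5. The medians of all measured probes were -0.30, -0.26, -0.01, -0.02, -0.21 and -0.10 in the same order. The 3 arrays of the first scan date had the lowest medians of measured probes, so the threshold lay nearer to the bulk of the probes there. SF1 had the narrowest range, with a lowest value of -2.24, against -3.93 to -3.18 in the other 5 bulls. Without SF1 the rule kept 3913 probes, 1.5 times as many, and without any other single bull 2677 to 3632.

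**Figure D2:**
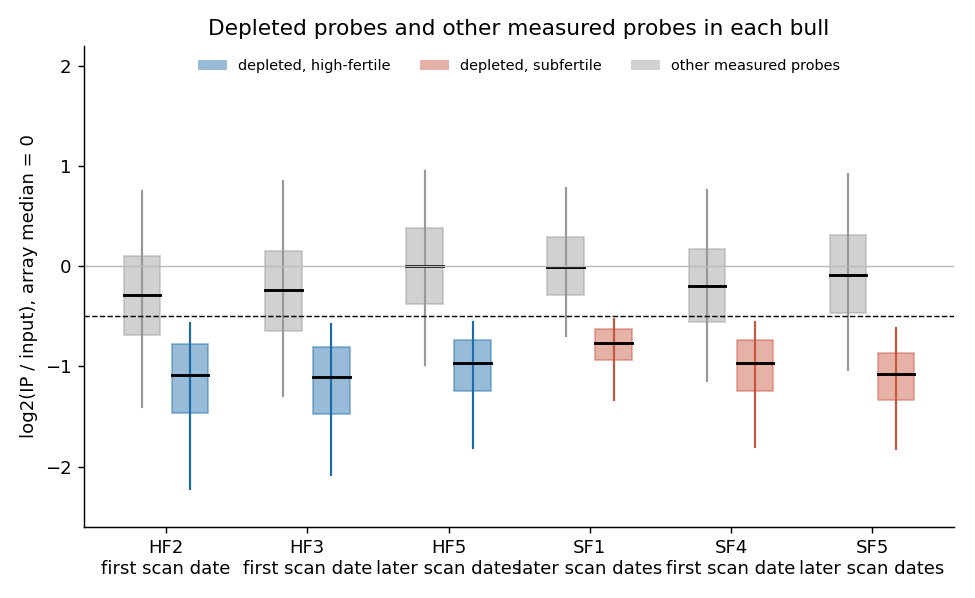
Log2 ratio of immunoprecipitated over input DNA, with the array median at 0 (vertical axis), in each bull (horizontal axis), for depleted probes (blue, high-fertile; red, subfertile) and the other measured probes (grey). Boxes span the 25th to 75th percentiles, black lines are medians, thin lines span the 5th to 95th percentiles, and the dashed line is the threshold of -0.5. Medians of the depleted probes range from -1.10 in HF3 to -0.77 in SF1.

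The mean over the 6 bulls ran from -2.11 to -0.59 among the depleted probes, with a median of -1.04, and 82 probes were at -1 or below in every bull. The 622 probes whose highest bull lay within 0.05 of the threshold had a median of means of -0.91, and the 860 measured probes that missed the threshold by up to 0.05 had -0.86. Over the 2564 probes, Pearson's r between bulls was 0.16 to 0.24 within the first scan date, 0.36 to 0.45 within the later dates and -0.0011 to 0.13 across them. The rule cuts off all values above the threshold, which lowers such correlations, and arrays scanned together also shared the date.

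The low ratio came with a lower immunoprecipitated signal in all 6 bulls and, in HF3 and SF4 above all, with a higher input signal. Median processed Cy5 signals of the depleted probes were 636, 934, 740, 1125, 870 and 1159 in HF2, HF3, HF5, SF1, SF4 and SF5, against 979, 1345, 1532, 2012, 1042 and 2069 in the other measured probes. Input signals were 1375, 2089, 1506, 1963, 1730 and 2579, against 1225, 1612, 1570, 2024, 1174 and 2315, thus higher in the depleted probes in HF2, HF3, SF4 and SF5. In SF4 input differed more than the immunoprecipitated signal. The immunoprecipitated signal was well above background in 34.6% of the depleted probes in HF2, 79.1% in HF3, 84.5% in HF5, 99.5% in SF1, 68.6% in SF4 and 98.8% in SF5. Where it was not, the ratio rests on a dim signal. The scanner output held a substitute for the immunoprecipitated signal in 8.66% of the depleted probes in HF2 and 4.45% in SF4. This share was 0.98% in HF3, 0.55% in HF5, 0% in SF1 and 0.04% in SF5. At those spots the ratio is a bound rather than a measured level. In 837 probes (32.6%) the immunoprecipitated signal passed the background limit on each of the 6 arrays. Of these, 25.4% had 5 or more CpGs, against 12.3% of other measured probes with the same property.

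The 4 non-overlapping depleted probes with the lowest means among these 837 are shown as the lowest fully measured ones.
chr18:12647484-12647543: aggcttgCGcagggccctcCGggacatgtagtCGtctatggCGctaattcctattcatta
chr12:83238902-83238961: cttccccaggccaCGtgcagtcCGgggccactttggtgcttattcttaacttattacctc
chr19:45986352-45986411: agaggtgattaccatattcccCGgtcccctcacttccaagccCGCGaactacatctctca
chr14:80151577-80151636: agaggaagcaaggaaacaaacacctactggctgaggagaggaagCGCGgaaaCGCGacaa

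The chr18 probe started 61 bp from a probe named for BANP, which encodes a nuclear matrix protein that binds unmethylated CGCG-containing promoter motifs. Its values were -0.91, -2.40 and -1.07 in HF2, HF3 and HF5 and -0.97, -1.51 and -2.10 in SF1, SF4 and SF5. The groups overlapped, and HF3 and SF5 were lowest. The chr14 probe, at -1.63, -2.03 and -1.16 in the high-fertile and -1.15, -1.23 and -1.60 in the subfertile bulls, was 1 of 8 depleted probes in a stretch of 287 bp in which all 8 measured probes were depleted.

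Some depleted probes had their sequence printed at a second place on the array, which gave 51 second spots among the measured probes. Of these, 24 were depleted probes themselves, chosen by the same rule and counted from both sides of each pair. The other 27 second spots had missed the rule in at least 1 bull. Their median values were -0.82, -0.89 and -0.66 in HF2, HF3 and HF5 and -0.54, -0.95 and -0.91 in SF1, SF4 and SF5, and 21 of the 27 were below 0 in all 6 bulls. Both spots of a pair share the labelled DNA and the hybridisation.

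Probes that lay near the depleted ones without meeting the rule were also low. Within 20 bp, start to start, 4723 such probes had a median of means of -0.71, and 68.9% of them were below 0 in all bulls. The median was -0.48 at 21 to 60 bp, -0.36 at 61 to 200 bp, -0.26 beyond that up to 500 bp, -0.20 from there up to 2000 bp and -0.09 in the 83731 probes more than 10000 bp away. From the nearest bin to the one that ends at 10000 bp the median rose at each step in all 6 bulls. Between 200 and 500 bp, where no base is shared with the nearest depleted probe, it was -0.37, -0.32 and -0.13 in HF2, HF3 and HF5 and -0.08, -0.37 and -0.20 in SF1, SF4 and SF5. Beyond 10000 bp it was -0.26, -0.20 and 0.08, and 0.04, -0.14 and -0.01. Fragments were 300 to 1000 bp long, so probes up to that distance could share fragments with a depleted probe and are not independent of it.

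**Figure D3:**
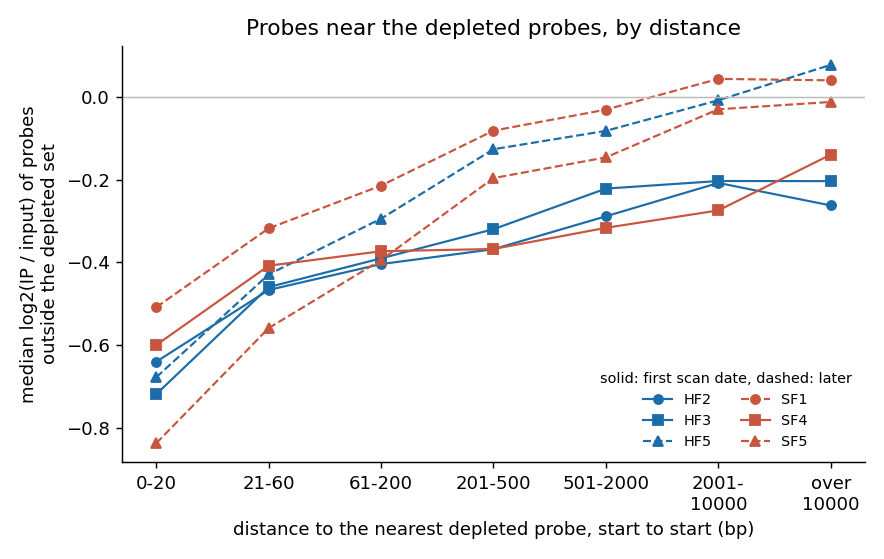
Median log2 ratio of immunoprecipitated over input DNA, array median at 0 (vertical axis), of measured probes outside the depleted set, by distance to the nearest depleted probe (horizontal axis, bp), with 1 line per bull (blue, high-fertile; red, subfertile; solid, first scan date; dashed, later dates). Within 20 bp the 6 medians lie between -0.84 and -0.51, and beyond 10000 bp between -0.26 and 0.08.

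With gaps of up to 500 bp joined, the depleted probes formed 1206 runs. Of these, 697 held a single depleted probe and 116 held 5 or more, together 867 probes. The largest, with 30 depleted among 108 measured probes, spanned 2175 bp at chr23:49963432-49965606 and contained 10 of the 13 measured probes named for NRN1, which encodes neuritin, a small anchored protein of neurons. Over all 108 measured probes the medians were -0.58, -0.73 and -1.12 in HF2, HF3 and HF5 and -0.84, -0.73 and -1.17 in SF1, SF4 and SF5, and 71 probes were below 0 in every bull. HF5 and SF5, which shared a slide, were the lowest of their groups. In HF2 the immunoprecipitated signal was well above background in only 36.1% of these probes. NRN1 probes outside the run included 1 with a mean of 0.52. The 3 non-overlapping depleted probes with the lowest means in the run show that it holds CpG-bearing and CpG-free sequence alike.
chr23:49964399-49964458: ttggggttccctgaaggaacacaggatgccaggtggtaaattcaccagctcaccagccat
chr23:49963440-49963499: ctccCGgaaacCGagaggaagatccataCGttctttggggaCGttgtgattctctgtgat
chr23:49963612-49963671: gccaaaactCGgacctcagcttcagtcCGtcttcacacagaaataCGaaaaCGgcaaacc

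The CpG-free probe gave -2.31, -1.15 and -2.55 in the high-fertile and -1.12, -1.22 and -1.87 in the subfertile bulls. The probe at chr23:49963440, with 4 CpGs, gave -2.33, -1.43 and -1.98, and -1.87, -1.05 and -1.13. Both were low in all bulls, as the rule required, and their groups overlapped. The immunoprecipitated signal was well above background on 3 of 6 arrays at the CpG-free probe and on 1 of 6 at chr23:49963440.

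**Figure D4:**
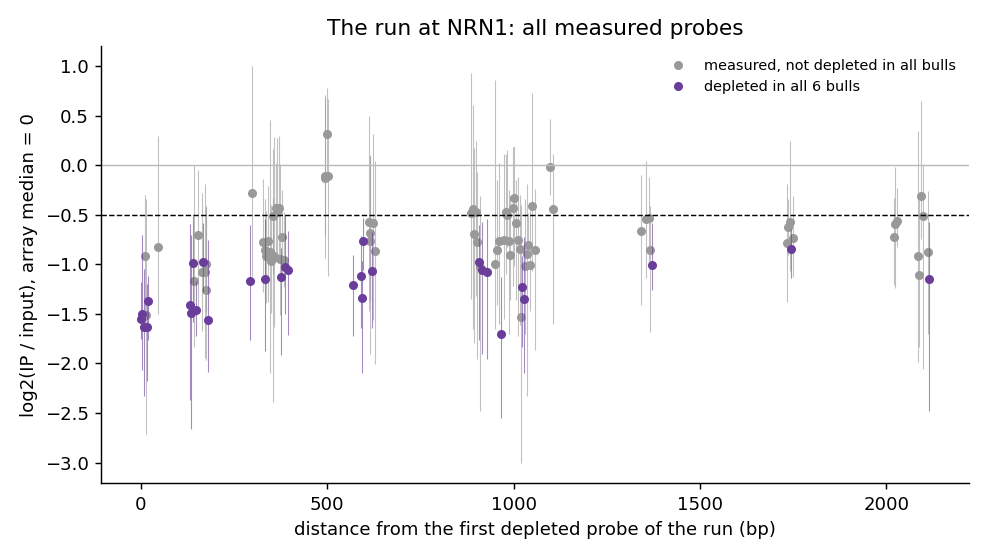
Log2 ratio of immunoprecipitated over input DNA, array median at 0 (vertical axis), of the 108 measured probes in the run at NRN1 by distance from its first depleted probe (horizontal axis, bp). Points are means over 6 bulls, thin lines span the lowest to the highest bull, purple marks the 30 depleted probes, and the dashed line is the threshold of -0.5. Most probes outside the depleted set also have means below 0.

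Runs were also seen near genes of several kinds, named here after their values were seen. The run at chr3:105914630-105915044, within 2000 bp of a probe named for TAL1, a transcription factor of blood formation, held 18 depleted among 52 measured probes. Its measured probes had medians of -0.79, -0.42 and -0.81 in the high-fertile and -0.62, -0.44 and -1.06 in the subfertile bulls. A run near ID2, an inhibitor of helix-loop-helix factors, held 13 of 87, a run near GBX2, a homeobox gene of the brain, 9 of 47, and a run near HOXA3 and HOXA5 9 of 25. The second largest run, 22 of 77 at chr21:47534790-47536017, had no named probe within 2000 bp, and neither did the 17 of 33 at chr3:123190739-123191754 or the 15 of 23 at chr19:7310964-7311204. A run near NAIF1 held 14 of 31, and runs near SNX11, a sorting nexin, and PDE5A, a phosphodiesterase of cyclic GMP, 11 of 22 each.

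The runs with the highest share depleted were shorter. In 16 runs every one of 5 or more measured probes was depleted. They included 8 of 8 near TRRAP, a scaffold of histone acetyltransferase complexes, 7 of 7 near PDSS1, an enzyme of coenzyme Q synthesis, 7 of 7 near PRKCA, a protein kinase C, 6 of 6 near PEX26, a peroxisome import factor, and 5 of 5 near MMS19, an iron-sulfur cluster targeting factor. The TRRAP run had medians of -1.49, -1.49 and -0.97 in HF2, HF3 and HF5 and -0.98, -1.01 and -1.14 in SF1, SF4 and SF5. At chr11:3927543-3927696, without a named probe nearby, 12 of 16 were depleted, with medians of -1.24, -1.79 and -1.23, and -1.15, -1.36 and -1.34. There the immunoprecipitated signal was well above background in 0% of probes in HF2, 6.25% in HF3, 12.5% in SF4 and 25% in HF5. Most of this run's ratios in those 4 bulls thus rest on a dim signal.

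Gene names come from the array files, which name few probes. Among the depleted probes 164 (6.40%) carried 155 gene names, and 6.86% of the measured probes carried 4258, so 3.64% of the named genes held a depleted probe. RefSeq's buffalo annotation (assembly NDDB_SH_1) listed 134 of the 155 symbols. Within 2000 bp of a named probe lay 1156 depleted probes (45.1%), against 42.6% of measured probes. Exon, intron and promoter positions were not assigned, since no annotation of the files' build was used here.

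The 4 named genes with the lowest values are shown with their sequences, since no other depleted probe carrying a name was lower.
TRAP1, chr25:3617341-3617400: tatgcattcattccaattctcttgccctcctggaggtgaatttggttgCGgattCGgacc
PIH1D2, chr15:20620810-20620869: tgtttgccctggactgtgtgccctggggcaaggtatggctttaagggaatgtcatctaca
GLYR1, chr25:4540112-4540171: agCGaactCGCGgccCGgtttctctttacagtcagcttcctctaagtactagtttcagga
AGBL5, chr11:74676649-74676708: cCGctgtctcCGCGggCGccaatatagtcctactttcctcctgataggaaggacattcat

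TRAP1, a mitochondrial chaperone of the HSP90 family, gave -2.55, -1.78 and -2.06 in HF2, HF3 and HF5 and -2.06, -1.50 and -1.67 in SF1, SF4 and SF5. It was low in all bulls with overlapping groups, but only 1 of its 3 measured probes was depleted, and the mean over the 3 was -0.60. PIH1D2, a gene with a PIH domain, had no CpG in its depleted probe and spread widely, at -2.35, -1.04 and -3.63, and -1.56, -0.53 and -2.28. GLYR1, a nucleosome-binding protein with a PWWP domain, gave -3.16, -2.02 and -1.22, and -1.53, -1.33 and -1.63. AGBL5, an enzyme that trims glutamates from tubulin, gave -2.35, -1.76 and -0.88, and -0.58, -3.93 and -0.84, with the 3 bulls of the first scan date below the 3 of the later dates. Fewer than 6 arrays had an immunoprecipitated signal well above background at each of these 4 probes, at 4, 2, 5 and 4 arrays. With normexp background correction, the means were -0.75, -0.52, -0.96 and -0.62.

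Other named probes with low means were those of DOLK (dolichol kinase, for protein glycosylation) at -1.67 and MED22 (a Mediator subunit of the transcription machinery) at -1.65. C27H8orf40 at -1.70, WDR8 at -1.65, FAM65B at -1.55 and CYBASC3 at -1.54 had names that the RefSeq table did not list as symbols. All 6 were at -0.5 or below in each bull by the rule, and 2 to 5 arrays had an immunoprecipitated signal well above background.

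The level of named depleted probes depended on the background correction. Over the 35 named by the rule the median of means was -1.27, and -0.62 with normexp, where 25 stayed at -0.5 or below, 10 did not and 27 changed by over 1.5 times. The probes above -0.5 included NRN1 at chr23:49963726 (-0.15), OLIG1 (-0.23), CCT5 at chr20:66732816 (-0.39) and SGCE (-0.45). Over all 2564 probes the normexp medians were -0.53, -0.68 and -0.55 in HF2, HF3 and HF5 and -0.49, -0.60 and -0.64 in SF1, SF4 and SF5, against -0.29, -0.24, -0.11, -0.01, -0.21 and -0.05 in all measured probes.

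Several depleted probes carried each of 7 gene names. NRN1 and GNAL had 3 each, and CCT5, IGF2BP3, EIF3B, PGAM1 and OXSM had 2 each. At GNAL, the G protein alpha subunit of olfactory signalling, 3 of 7 measured probes were depleted and the mean over the 7 was -0.85. The GNAL probe at chr24:44306103-44306162, with 6 CpGs, gave -1.34, -1.85 and -1.26 in the high-fertile and -0.93, -1.04 and -1.03 in the subfertile bulls without overlap, and its immunoprecipitated DNA was detected in every bull. The run around it held 10 depleted among 20 measured probes. Their medians were -1.11, -1.72 and -0.72 in HF2, HF3 and HF5 and -0.66, -1.05 and -0.77 in SF1, SF4 and SF5, with HF3 lowest.

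CCT5, a subunit of the TRiC chaperonin that folds actin and tubulin, had 2 of 4 measured probes depleted and a mean of -1.07 over the 4. EIF3B, a subunit of translation initiation factor 3, had 2 of 3 and a mean of -1.005. Its run, with or without names, held 8 of 17, and all 17 were below 0 in every bull. IGF2BP3, an RNA-binding protein of fetal tissues, had 2 of 4, and its run held 8 of 11. PGAM1, the glycolytic phosphoglycerate mutase, had 2 of 3, and its run held 9 of 12 with medians between -1.31 and -0.86 in the 6 bulls. OXSM, an enzyme of mitochondrial fatty acid synthesis, had only 2 of 9, and the mean over its 9 measured probes was -0.40. At the 2 depleted probes of CCT5, by position, the immunoprecipitated signal was well above background on 2 and 1 of the 6 arrays. These numbers were 4 and 6 for EIF3B, 5 and 1 for IGF2BP3, 3 and 3 for PGAM1 and 5 and 6 for OXSM.

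Gene lists chosen for background gave few depleted probes. Of 79 measured developmental regulators, 5 held a depleted probe, against 3.64% of all named genes. These were GBX2 at -0.80, HOXB7 at -1.09, NKX2-1 at -0.92 and IRX4 at -1.06, which encode homeobox factors, and OLIG1 at -1.18, a helix-loop-helix factor of oligodendrocytes. The median over the list's gene means was -0.27, and -0.13 over all named genes. Counted by distance, 24 of the 83 listed regulators with a probe on the array had a depleted probe within 2000 bp for which they were the nearest name, against 497 of all 7918 names. The surroundings of these genes held many probes, however, and 1.75% of the 3769 measured probes within 2000 bp of a listed regulator were depleted, against 2.45% of the 47274 within 2000 bp of any named probe.

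Of 29 measured genes for ribosomal proteins and translation factors 1 held a depleted probe (EIF3B), of 35 spliceosome and RNA-binding genes 2 (HNRNPA1 at -0.85 and PRPF19 at -1.29), and of 25 ubiquitin and proteasome genes 1 (PSMC3, an ATPase of the proteasome, at -1.25). HNRNPA1, which packages messenger RNA precursors, had an immunoprecipitated signal above background in every bull and had 7 CpGs, with values of -0.99, -1.16 and -0.89 in HF2, HF3 and HF5 and -0.71, -0.66 and -0.71 in SF1, SF4 and SF5. Its 3 high-fertile values lay below its 3 subfertile values by a small gap. No depleted probe was named for the 25 measured chromatin modifiers, the 16 genes of sperm structure or the 26 of mitochondrial respiration, lists so short that the 3.64% of all named genes comes to less than 1 gene in each. Genes of these kinds outside the lists did carry one, among them TRRAP, SMARCD2, RBBP5 and PCGF1 of chromatin complexes and the centrin gene CETN1, chosen after their values were seen. Against the 2.45% near any named probe, the share depleted within 2000 bp was 3.49% of 544 for translation, 3.19% of 345 for ubiquitin and proteasome, 2.51% of 319 for chromatin, 1.61% of 249 for respiration, 1.27% of 628 for spliceosome and 0 of 145 for sperm structure genes.

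The sperm origin of the DNA was checked against germline promoters, which sperm keeps unmethylated, and imprinted genes. The 7 measured genes of the germline list (median of gene means -0.16), 6 of the maternally imprinted list (-0.10) and 5 of the paternally imprinted list (0.06) lay close to the -0.13 of all named genes, so these few genes did not settle the check. Within 2000 bp, 0 of 36 measured probes were depleted for the germline list and 4 of 181 (2.21%) for the maternally imprinted list. For the paternally imprinted list it was 1 of 162 (0.62%), with MEG3 as its nearest name. Near any named probe the share was 2.45%. In these lists SGCE alone had a depleted probe that carried its name. It encodes epsilon-sarcoglycan, is expressed from the paternal copy and adjoins PEG10 in an imprinted domain. Its probe repeats a short CpG-bearing unit, which is why it is shown.
SGCE, chr4:12306485-12306544: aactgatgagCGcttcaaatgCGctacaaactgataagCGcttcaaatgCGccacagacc

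The SGCE probe gave -1.80, -0.74 and -1.55 in HF2, HF3 and HF5 and -0.56, -0.79 and -0.86 in SF1, SF4 and SF5. HF3 overlapped the subfertile bulls. Over its 6 measured probes SGCE had a mean of -0.73, whereas the 21 measured probes of PEG10 had a mean of 0.03 and no depleted probe.

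The depleted probes were found on all 29 autosomes of the probe names. Among the 26 autosomes with 500 or more measured probes the share ran from 1.22% on chromosome 6 (48 of 3927) to 3.97% on chromosome 27 (67 of 1688). Chromosomes 24, 21 and 19 followed at 3.49%, 3.39% and 3.19%. Position on the array moved with the share as well. In 4 equal bands of array rows, from the first rows to the last, 3.42%, 2.47%, 2.09% and 1.55% of measured probes were depleted, with 2.89, 2.84, 2.79 and 2.79 CpGs per probe. The medians of measured probes in HF3 were -0.43 in the first of these bands and -0.11 in the last, and in SF1 -0.01 and -0.04. With 8 bands of rows set to a common median, 2517 probes met the rule, 2224 of them among the 2564.

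The comparison that the series was made for, high-fertile against subfertile bulls, found no difference within the depleted probes that passed the test. limma on all 110686 tested probes called 0 (0% at a Benjamini-Hochberg adjusted p below 0.05), and 0 of the 2560 depleted probes without a spot flag. At an unadjusted p below 0.05 it gave 2036 probes (1.84%), and 34 of the 2560 (1.33%), 2 of them higher and 32 lower in high-fertile bulls. The split of such probes was 5 higher and 10 lower with normexp and 10 and 34 when centred on the tested probes. It was 19 and 57 with scan session as a block and 5 and 48 with slide as a block. Without 1 bull it leaned the same way each time, between 5 and 9 without SF1 and 11 and 168 without HF5. Within the later scan dates the split also leaned lower. Within the first scan date, where SF4 was the only subfertile bull, it leaned the other way. The difference was below 0 in 67.8% of the depleted and 61.4% of all tested probes. With normexp these shares were 53.5% and 71.5%, and within the first scan date 60.9% and 53.1%. The median difference, high-fertile minus subfertile, was -0.12 in the depleted probes and -0.09 in all tested probes, and with normexp -0.01 and -0.12, so their order depended on the background correction. All 3 high-fertile bulls lay below all 3 subfertile bulls at 154 depleted probes (6.02%), against 3.48% of tested probes, and above them at 39 (1.52%), against 2.43%. The rule used the same arrays, and these counts are a description.

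As a single value per bull, the median of the depleted probes minus that of the measured probes averaged -0.86 ± 0.087 (SD, n = 3) in high-fertile and -0.83 ± 0.13 (SD, n = 3) in subfertile bulls, a difference smaller than the spread between bulls. It is given without a test, since the rule used these values. Within the first scan date (HF2 and HF3 against SF4) the median difference was -0.11 in the depleted probes and -0.04 in all, with 0 called. Within the later dates (HF5 against SF1 and SF5) it was -0.03 and 0.04. That comparison called 34 probes (0.0307%), among them 1 depleted probe, at chr24:3867156-3867215, with -3.88 in HF5 against -0.76 in SF1 and -0.75 in SF5. At that probe HF2 and HF3 gave -1.83 and -1.33, and SF4 -1.27. The within-date comparison has 1 residual degree of freedom and rests on a single high-fertile bull.

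The depleted probe with the smallest unadjusted p in the lower direction was also the lowest of all, and is shown for that reason. It lies 3 bp from a probe named for GTPBP5, a GTPase of mitochondrial ribosome assembly.
chr13:55748363-55748422: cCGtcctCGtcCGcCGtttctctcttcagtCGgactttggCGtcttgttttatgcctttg

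It gave -2.11, -3.54 and -2.86 in HF2, HF3 and HF5 and -1.16, -1.42 and -1.56 in SF1, SF4 and SF5, with no overlap between the groups. The difference was -1.44 with an unadjusted limma p of 0.0038 and an adjusted p of 0.99998, and its immunoprecipitated signal was well above background on 2 of 6 arrays. Next in this direction came chr19:63617506-63617565, 769 bp from a WIPI1 probe, with -2.50, -1.68 and -2.10 against -0.70, -0.64 and -1.42, and chr14:62247576-62247635, with -1.67, -1.50 and -1.76 against -0.73, -0.54 and -0.87. In the higher direction the smallest p values belonged to chr13:23639723-23639782, a probe of RAB19 and a probe 87 bp from RHEB. The RAB19 probe gave -0.69, -0.79 and -1.07 in high-fertile and -1.60, -1.23 and -2.14 in subfertile bulls. Its immunoprecipitated signal was well above background on only 1 of 6 arrays. That number was 4 at chr13:23639723, at the chr19 probe and near RHEB, and 3 at the chr14 probe. Groups did not overlap at any of these 6 probes, and none passed the adjusted threshold. With normexp the 3 lower differences shrank to -0.10, -0.20 and -0.20, that near GTPBP5 from -1.44, and the 3 higher ones were 0.36, 0.34 and 0.27.

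**Figure D5:**
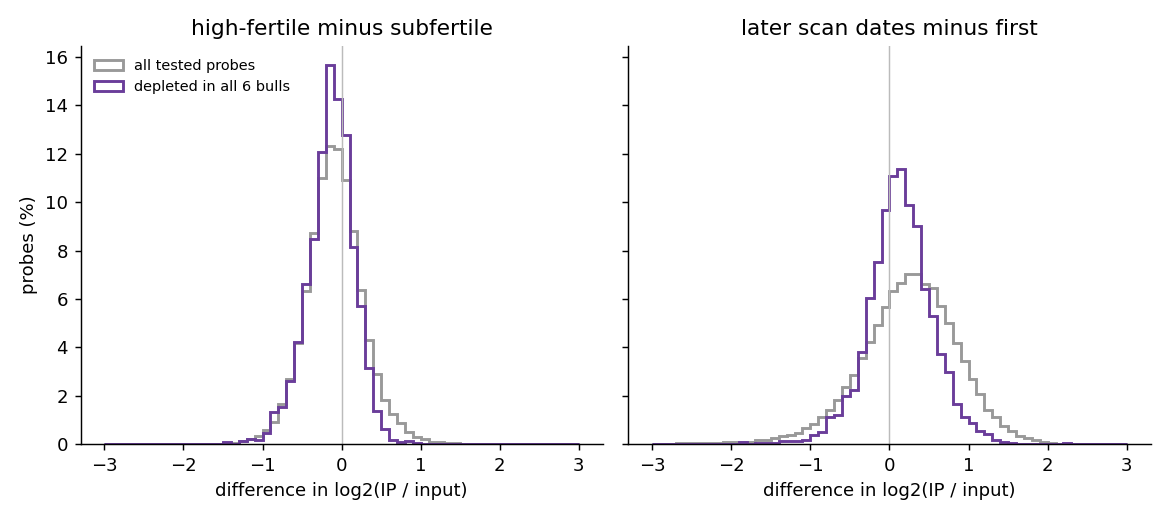
Distribution over probes (vertical axis, percent of probes per bin) of the difference in log2 ratio (horizontal axis) between high-fertile and subfertile bulls (left) and between arrays of the later and the first scan dates (right), for all tested probes (grey) and depleted probes (purple). The medians are -0.09 and -0.12 on the left and 0.27 and 0.13 on the right.

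Scan date separated the arrays more than fertility did by number of calls. With fertility in the same limma model, later against first scan date called 7194 probes higher (6.50%) and 1747 lower (1.58%), and of the depleted probes 17 higher and 7 lower. The median difference was 0.27 in all tested probes and 0.13 in the depleted ones, which the rule had required to be low on both sides. When arrays were centred on the tested probes instead, the median of all moved to 0.03 and the split to 1115 higher and 1819 lower, with 0 and 8 of the depleted probes. Of the 24 called depleted probes 2 carried a gene name, AGBL5, which was higher on the later dates by 2.23 (SE 0.45, limma adjusted p = 0.034), and PIH1D2, which fell by 1.63 (SE 0.41, adjusted p = 0.049). Since centring on the tested probes left no depleted probe called higher, the call at AGBL5 was lost there. Scan date cannot be told apart from anything else that differed between those bulls.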

How the data were processed

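Deposited scanner output of 6 two-colour arrays, 1 per bull, was read with the deposited table of the whole series. Per the file headers, Agilent Feature Extraction 10.7.3.1 made the processed Cy5 and Cy3 intensity values (background-subtracted and dye-normalized) and a log10 ratio per spot. The deposited series table holds log2 ratios: for 177439 of 177440 probes they equalled the scanner ratio, turned to log2, within 0.001 on all arrays, so its direction is immunoprecipitated over input. Column medians were -0.045 to 0. The rule used that table after median centring. Fertility and scan dates were tested by limma's lmFit and eBayes (version 3.58.1, R 4.3.3; Benjamini-Hochberg over all tested probes) on median-centred log2 ratios of processed intensities, over non-control probes with input well above background and no non-uniformity flag on any array. The limma script was run on simulated data with independent normal noise and no scan date effect, which checks the code only. Alternatives were normexp (offset 50), other thresholds, filters and centrings, scan and slide blocks, and leaving out each bull. The number of arrays, 3 per group, limits the precision. Each array is a separate bull per the labels, which do not say when its DNA was processed.

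The members and gene lists were chosen with earlier results of these data known. Named were genes with 2 or more depleted probes (up to 15), up to 10 further genes with the lowest means, list genes with a depleted probe, and the 3 depleted probes per direction with the smallest p for fertility. Other runs and genes were named from their size or share after the values were seen. Lists covered germline promoters, maternal and paternal imprints, developmental regulators, ribosome and translation, spliceosome and RNA binding, ubiquitin and proteasome, chromatin modifiers, sperm structure and mitochondrial respiration. A probe named with a date in the files was treated as unnamed.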

Additional observations from a re-analysis of the deposited data

How the results depend on the processing

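The number of depleted probes, 2564, depended on the rule: 4406 at a threshold of -0.4, 1446 at -0.6 and 82 at -1. It was 701 with normexp background correction (563 of them among the 2564), 1172 when arrays were centred on the measured probes, 837 with the immunoprecipitated signal well above background on all arrays, and 2677 to 3913 without 1 bull. The cause of the fall under normexp was not tested. The share with 5 or more CpGs, 23.3%, was 32.9% at a threshold of -1, 25.2% under normexp (an alternative chosen after seeing the data), 25.4% with the immunoprecipitated signal above background, and 19.2% per run of overlapping probes. Probes within 200 bp outside the set had a median of -0.57, against -0.26 between 200 and 500 bp and -0.20 between 500 and 2000 bp. For fertility, the later scan dates alone called 34 probes and 1 depleted probe, and every other alternative run called 0 of each, where normexp gave 2337 probes and 15 depleted ones with p below 0.05 before adjustment. The depleted probes' median difference ran from -0.19 to -0.03 without 1 bull. Scan date called 16789 probes and 75 depleted ones without the fertility term, and 2934 and 8 when centred on the tested probes. Of the 35 named probes, 10 rose above -0.5 under normexp (means -0.96 to -0.15). The 6 differences named for fertility kept their sign in all 84 recomputations, but under normexp the largest shrank from -1.44 to -0.10. These probes were chosen by their p for fertility, and their groups did not overlap. Leaving out a bull or keeping 1 scan date could therefore not reverse a sign, and nothing is read from these agreements. No paired analysis was made, because the groups are separate bulls and the labels give no pairing. Dim immunoprecipitated signal limits the lowest ratios, above all in HF2.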
